A study of Mus musculus with 15 samples.

Results

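The INK4 and Kip genes encode inhibitors of cyclin-dependent kinases (CDKs), the enzymes that drive cells from G1 into S phase. The genes described were Cdkn2a, Cdkn2b, Cdkn2c and Cdkn2d of the INK4 family and Cdkn1b and Cdkn1c of the Kip family, chosen by symbol. All 6 were measured, by 7 probe sets, among 18193 genes on the array, and all 6 passed the filter on low signal that left 11902 genes for testing. Each gene was read from its probe set with the highest mean, which mattered for Cdkn1b alone, the gene with a second probe set.

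Expression was measured in 15 mouse samples, 1 oligonucleotide array each. The first group was 9 peripheral T cell lymphomas (mPTCL 1 to 9), which developed after T cells from p53KO mice were transferred into C57BL/6 CD3KO recipients and which were sorted from liver. The second group was 3 preparations of p53 KO T cells activated in vitro, and the third was 3 preparations of resting p53 KO T cells. The donors of both normal groups were C57Bl/6 animals aged 5 weeks, and the organ that each preparation was sorted from, spleen or liver, is not given. The T cells of all 3 groups therefore lacked p53, and no group of T cells with intact p53 was compared. The recipients are described as CD3KO alone, so host cells in a lymphoma sample need not lack p53. As background, CD3-deficient hosts lack mature T cells of their own but keep B cells and myeloid cells. The labels describe injections of PBS or heat-killed Streptococcus pneumoniae in the growth protocol and do not say which samples they apply to. Nor do they tie a replicate to an animal of its own, so p-values measure the spread between these samples, which may be technical.

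INK4 proteins bind CDK4 and CDK6 and keep D-type cyclins from activating them, which leaves the retinoblastoma protein Rb able to hold back E2F and S phase entry. Kip proteins bind a wider range of cyclin-CDK complexes, chiefly those of CDK2. Cdkn2a encodes p16Ink4a and, from another first exon and reading frame, p19Arf, which stabilises p53 by binding Mdm2. Cdkn2b (p15Ink4b), Cdkn2c (p18Ink4c), Cdkn2d (p19Ink4d), Cdkn1b (p27Kip1) and Cdkn1c (p57Kip2) encode 1 inhibitor each, and p27Kip1 is best known in T cells for being high in quiescence and degraded after activation.

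The start sites of the genes that lay above the normal range in single lymphomas, Cdkn2a, Cdkn2b and Cdkn2c, are shown first, because 3 of these 4 stretches lie in one cluster and because the probe set of Cdkn2a does not assign its signal to either transcript. RefSeq promoter windows, in mouse build GRCm38.p6, matched 5 of the 6 genes with 7 start sites in all, and each stretch below is the 250 bases before a start, 5′ to 3′ on the strand of the gene. All 4 lie on the minus strand of chromosome 4, at chr4:89294620-89294869 for the upstream Cdkn2a start, which makes the Arf first exon, at chr4:89282193-89282442 for the downstream Cdkn2a start, at chr4:89311033-89311282 for Cdkn2b and at chr4:109666757-109667006 for the upstream start of Cdkn2c. Capitals mark matches to the E2F motif TTTNNCGC, in which N is any base.
Cdkn2a, upstream start: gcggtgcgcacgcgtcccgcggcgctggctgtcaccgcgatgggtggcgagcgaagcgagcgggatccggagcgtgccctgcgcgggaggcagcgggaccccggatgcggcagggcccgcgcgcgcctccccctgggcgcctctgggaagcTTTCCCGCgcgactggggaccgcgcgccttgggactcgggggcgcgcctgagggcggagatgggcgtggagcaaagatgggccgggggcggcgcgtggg
Cdkn2a, downstream start: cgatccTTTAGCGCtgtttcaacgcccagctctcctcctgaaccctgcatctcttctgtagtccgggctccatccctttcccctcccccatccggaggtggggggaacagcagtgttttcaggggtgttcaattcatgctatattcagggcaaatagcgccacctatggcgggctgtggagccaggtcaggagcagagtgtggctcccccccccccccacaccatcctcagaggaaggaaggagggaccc
Cdkn2b: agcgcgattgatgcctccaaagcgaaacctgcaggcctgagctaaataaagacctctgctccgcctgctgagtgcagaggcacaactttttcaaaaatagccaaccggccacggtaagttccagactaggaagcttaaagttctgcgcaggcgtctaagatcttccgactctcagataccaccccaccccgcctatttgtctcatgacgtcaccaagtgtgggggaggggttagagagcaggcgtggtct
Cdkn2c, upstream start: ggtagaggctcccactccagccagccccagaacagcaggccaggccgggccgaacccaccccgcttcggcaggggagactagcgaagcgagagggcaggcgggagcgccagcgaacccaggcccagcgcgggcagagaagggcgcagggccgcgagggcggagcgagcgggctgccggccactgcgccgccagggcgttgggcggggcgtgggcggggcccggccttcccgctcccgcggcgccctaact
The 2 Cdkn2a starts lay 12427 bases apart, and the Cdkn2b start lay 16413 bases from the upstream Cdkn2a start. The upstream Cdkn2a window held 40 CpG dinucleotides, more than 98.7% of the 32851 windows in the table, against 7 in the downstream window, 12 in that of Cdkn2b and 29 in that of Cdkn2c. The E2F motif, searched on both strands, matched once in each Cdkn2a window, at position -99 from the upstream start and at position -244 from the downstream start, and in none of the other 5 windows. It occurred in 4.28% of all windows. The Sp1 motif GGGCGGG matched at positions -51 and -40 in the Cdkn2c window shown and 3 times in that of Cdkn2d, against 23.4% of all windows with a match, and the FOXO motif GTAAACA matched in none of the 7, against 3.17% of all windows. No match overlapped another, and a match describes letters, not binding.

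The label of the cells was checked against T cell markers. The mean of 8 measured T cell markers ran from 8.30 to 11.18 log2 units in the lymphomas, below the range of 12.67 to 12.74 in activated and 12.87 to 13.04 in resting T cells. Cd3e, a defining chain of the T cell receptor complex, was at the floor in mPTCL 4 and had intensities of 51.4 in mPTCL 3 and 524 in mPTCL 5, against 1839 to 4965 in the other 6 lymphomas, 2098 to 2701 in activated and 2795 to 3100 in resting T cells. The mean of 9 neutrophil markers reached 12.02 in the lymphomas and exceeded the highest normal array by more than 2 log2 units in mPTCL 1, 2, 4, 5, 8 and 9. It stayed between 5.72 and 6.04 in activated and between 5.70 and 6.08 in resting T cells. The mean of 9 B cell markers was more than 1 unit above every normal array in mPTCL 1 (10.46) and mPTCL 5 (11.95). In such bulk samples, fewer cells of a type and less RNA per cell cannot be told apart. Median signal per array was 68.0 to 116.2 in lymphomas, 110.5 to 118.3 in activated and 91.7 to 99.2 in resting T cells, and each array had the same trimmed mean, 500. The amplification kit is stated for the normal samples alone and a software version for the lymphomas alone, so such processing differences and the lymphoma group cannot be told apart.

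Values below are the deposited intensities, with those under 32 set to 32 (5 on the log2 scale) before log2 was taken, and a gene was called at a limma adjusted p under 0.05 together with a change of at least 2-fold. Of the 6 inhibitors, 1 was called in each comparison. It was Cdkn2c in lymphomas against resting T cells, Cdkn1b in lymphomas against activated T cells, and Cdkn2c again in activated against resting T cells. Over all tested genes, 13.9% were called in lymphomas against resting cells (7.03% higher and 6.84% lower), 15.3% in lymphomas against activated cells (7.04% higher and 8.28% lower) and 12.7% in activated against resting cells (8.45% higher and 4.23% lower), so 1 call of 6 was near the background each time. The comparisons share arrays, since each of the 3 groups enters 2 of them. The plot of intensities by array and the plot of changes by comparison show all 6 genes.

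**Figure D1:**
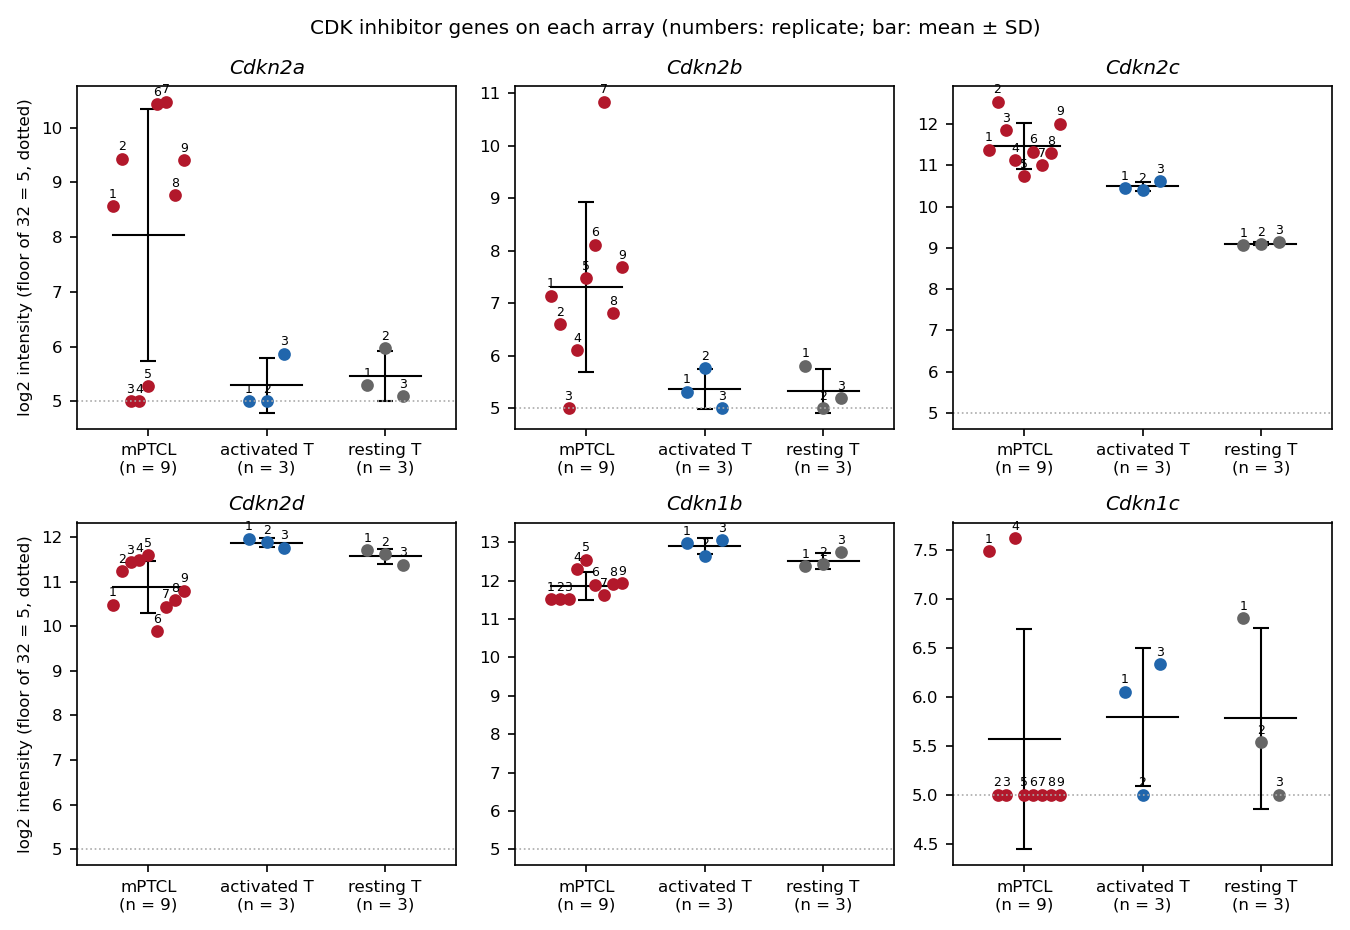
Log2 intensity (vertical axis, with values under 32 drawn at the dotted floor of 5) of each inhibitor gene in 9 mPTCL, 3 activated T and 3 resting T arrays. Points are arrays labelled by replicate number, and bars are the mean ± SD. Cdkn2a parts the lymphomas into 3 near the floor and 6 at 8.57 or more, Cdkn2c is higher in every lymphoma than in every normal array, and Cdkn1b is lower in every lymphoma than in every activated array.

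**Figure D2:**
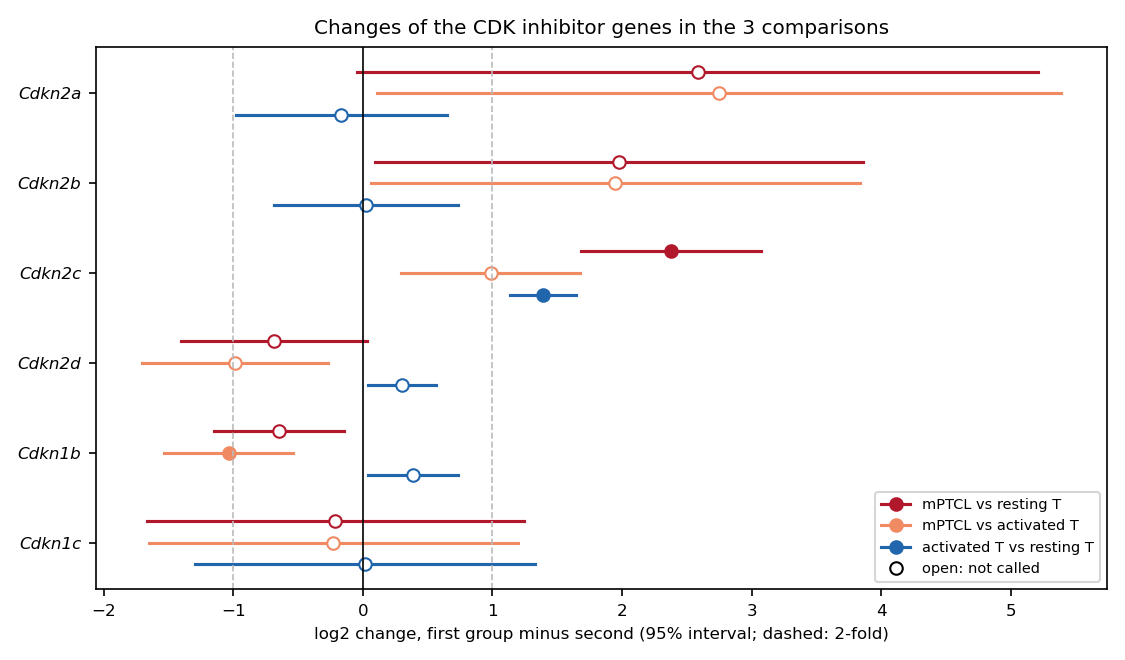
Log2 change (horizontal axis, first group of each comparison minus the second) of the 6 genes in the 3 comparisons. Circles are fitted changes, filled where the gene was called, and lines are 95% intervals from limma. The intervals of Cdkn2a and Cdkn2b in the lymphoma comparisons are the widest shown, and both intervals of Cdkn2c in the comparisons with resting T cells lie wholly above 1, the dashed 2-fold line.

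Cdkn2c, the p18Ink4c gene, was the inhibitor with a step at each state. Its intensity was 2669, 5979, 3687, 2223, 1717, 2576, 2051, 2511 and 4118 in mPTCL 1 to 9, against 1391, 1355 and 1572 in activated T cells and 535, 545 and 565 in resting T cells. Every lymphoma lay above every activated array, and every activated array lay above every resting array. Against resting T cells the gene was higher in lymphomas by 2.38 ± 0.32 log2 units (SE, n = 9 and 3; 5.19-fold, 95% interval 1.68 to 3.07, limma adjusted p = 0.000465). Activated cells exceeded resting cells by 1.39 ± 0.11 (n = 3 and 3; 2.62-fold, limma adjusted p = 0.000419). Lymphomas exceeded activated cells by 0.99 ± 0.32 (1.98-fold, limma adjusted p = 0.0442), which passed the p threshold and fell just short of 2-fold, so it was not called. It was called without mPTCL 4 (1.03), mPTCL 5 (1.08) or mPTCL 7 (1.05), and over all arrays left out in turn its adjusted p ran from 0.0223 to 0.151. Groups without overlap, lymphomas higher, were found for 8.36% of all genes against resting and 9.78% against activated cells, and activated arrays lay wholly above resting ones for 23.3%. Without the 6 lymphomas high in neutrophil markers the change against resting cells was 2.29 (adjusted p = 0.00595) and against activated cells 0.91 (adjusted p = 0.0511).

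Among single lymphomas, Cdkn2c stood out in mPTCL 2, at 3.80-fold the highest normal array, mPTCL 9 (2.62-fold) and mPTCL 3 (2.35-fold). mPTCL 5 was lowest, at 1.09-fold. Cdk6, one of the 2 kinases that p18Ink4c binds, had its lowest intensity in the lymphoma highest in Cdkn2c, 94.1 in mPTCL 2, against 1313 to 9299 in the other 8, 1172 to 1216 in activated and 504 to 803 in resting T cells. That pairing was picked out after its values were seen and concerns 1 array.

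Cdkn2a, which encodes p16Ink4a and p19Arf, divided the lymphomas. Its intensity was 380, 694, 19.8, 26.8, 38.7, 1380, 1427, 434 and 677 in mPTCL 1 to 9, against 19.2, 5.31 and 58.6 in activated T cells and 39.4, 62.8 and 34.2 in resting T cells. mPTCL 1, 2, 6, 7, 8 and 9 lay 6.05- to 22.7-fold above the highest normal array, whereas mPTCL 3, 4 and 5 lay within the normal range, so the groups overlapped. No lymphoma lay between 38.7 and 380. The mean was 8.04 ± 2.30 log2 units in lymphomas, 5.29 ± 0.50 in activated and 5.46 ± 0.46 in resting T cells (SD, n = 9, 3 and 3). The group difference was 2.58 ± 1.22 against resting cells (SE; 95% interval -0.04 to 5.21, limma adjusted p = 0.158) and 2.75 ± 1.22 against activated cells (0.11 to 5.39, limma adjusted p = 0.125), and neither passed. The sizes depend on the floor, since mPTCL 3 and 4 and 2 activated arrays were set to it: with a floor of 16 they were 2.48 against resting and 3.22 against activated cells, and with a floor of 64 both were 2.34. Activated and resting cells differed by -0.17 ± 0.34, within the spread between arrays.

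Being more than 1 log2 unit above all 6 normal arrays in at least 6 lymphomas was true of 2.6% of all tested genes, and both Cdkn2a and Cdkn2b were among these. No normal array exceeded 62.8 for Cdkn2a or 56.0 for Cdkn2b, so both passed the filter of 100 on 3 arrays only through lymphomas. High values in lymphomas were therefore partly built into their selection, and the 2.6% lends them no support. The 3 lymphomas near the floor for Cdkn2a were also the 3 lowest in Cd3e. Their T cell marker means were 8.30 to 9.15, against 10.33 to 11.18 in the other 6, while neutrophil marker means were 5.66 in mPTCL 3, 11.43 in mPTCL 4 and 12.02 in mPTCL 5. The part of T cell content in the split of Cdkn2a was not tested. Leaving out these 3 arrays, an alternative added after the data were seen, also removes the 3 lowest Cdkn2a values, so a larger rise was built in. The change was then 4.06 against resting cells (limma adjusted p = 0.000225) and 4.22 against activated cells (0.000257), and neither p-value lends support. In the 6 lymphomas high in Cdkn2a, Cd3e lay within 2-fold of the range of the normal arrays.

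Cdkn2b, the p15Ink4b gene beside Cdkn2a, was higher in single lymphomas and low in normal cells. Its intensity was 141, 96.8, 2.70, 68.7, 178, 277, 1830, 112 and 206 in mPTCL 1 to 9, against 39.7, 54.3 and 31.8 in activated T cells and 56.0, 8.35 and 36.4 in resting T cells. mPTCL 7 was far above the rest at 32.7-fold the highest normal array, mPTCL 3 was the one lymphoma below the normal maximum, and the groups overlapped through it. mPTCL 1, 5, 6, 8 and 9 lay 2.00- to 4.95-fold above the highest normal array, mPTCL 8 just past the 2-fold margin and mPTCL 2 just inside it at 1.73-fold. The group difference was 1.98 ± 0.87 log2 units against resting cells (limma adjusted p = 0.133) and 1.95 ± 0.87 against activated cells (limma adjusted p = 0.128), and neither passed. Activated and resting cells differed by 0.03 ± 0.30. mPTCL 5 separated the neighbouring genes, with Cdkn2b at 3.17-fold the highest normal array and Cdkn2a within the normal range. That lymphoma was also the highest in B cell and in neutrophil markers, whose part in its Cdkn2b signal was not tested.

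**Figure D3:**
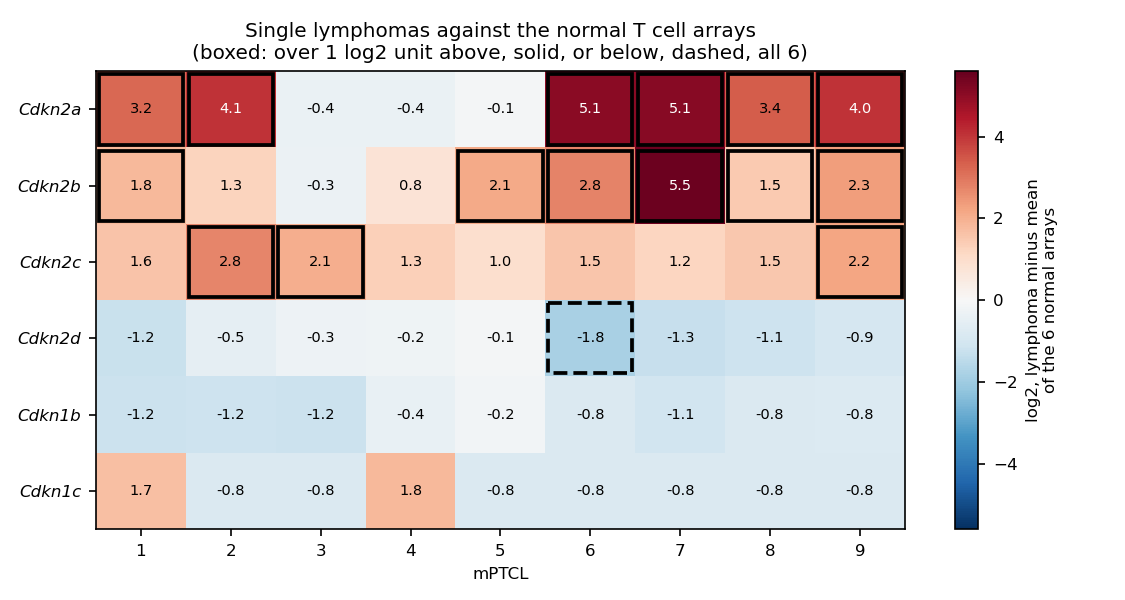
Difference in log2 intensity between each mPTCL (columns) and the mean of the 6 normal arrays, for each inhibitor gene (rows), with red for higher and blue for lower. Solid boxes mark values more than 1 log2 unit above every normal array, 15 of 54, and the dashed box marks the one value of these main probe sets more than 1 unit below every normal array, Cdkn2d in mPTCL 6.

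Cdkn2d, the p19Ink4d gene, had its lowest value in mPTCL 6. Its intensity was 1427, 2396, 2769, 2849, 3096, 949, 1388, 1529 and 1775 in mPTCL 1 to 9, against 3988, 3791 and 3455 in activated T cells and 3320, 3143 and 2664 in resting T cells. Every lymphoma lay below every activated array, a separation found for 12.4% of all genes, while mPTCL 3, 4 and 5 lay within the resting range. The difference was -0.99 ± 0.33 log2 units against activated cells (95% interval -1.71 to -0.27, limma adjusted p = 0.0512) and -0.69 ± 0.33 against resting cells (limma adjusted p = 0.171), so neither was called. mPTCL 6 lay 2.81-fold below the lowest normal array, the only value of a main probe set in any lymphoma more than 1 log2 unit below. Activated cells lay 0.30 ± 0.11 above resting cells (limma adjusted p = 0.0797) without overlap, a separation found for 23.3% of all genes. The change was -0.02 when arrays were centred on the median, a scaling that put the median of all genes at -0.30. The 3 lymphomas highest in Cdkn2d, mPTCL 3, 4 and 5, were those near the floor for Cdkn2a and lowest in Cd3e. Leaving out these 3, chosen after the data were seen, also removes the highest Cdkn2d values, so a larger decrease was built in. The change against activated cells was then -1.30 (limma adjusted p = 0.00372). Without mPTCL 3, 4 or 5 alone it was -1.06, -1.06 and -1.08 (limma adjusted p from 0.0273 to 0.0395), each past both thresholds. Over all 12 arrays left out in turn it ran from -1.08 to -0.87 (limma adjusted p from 0.0273 to 0.165).

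Cdkn1b, the p27Kip1 gene, was lower in lymphomas than in activated T cells. On its main probe set the intensity was 2918, 2952, 2931, 5060, 5989, 3809, 3139, 3844 and 3899 in mPTCL 1 to 9, against 8082, 6454 and 8516 in activated T cells and 5302, 5493 and 6828 in resting T cells. All 9 lymphomas lay below all 3 activated arrays, a separation found for 12.4% of all genes, and mPTCL 5 alone reached the resting range. Lymphomas were lower than activated cells by -1.04 ± 0.23 log2 units (SE, n = 9 and 3; 2.05-fold, 95% interval -1.54 to -0.54, limma adjusted p = 0.00854). Against resting cells the difference was -0.65 ± 0.23 (limma adjusted p = 0.0684), which did not pass. Centring arrays on the median gave -0.83 against activated cells (limma adjusted p = 0.0301), below 2-fold, with the median of all genes at 0.12, and the p threshold was missed without activated replicate 1 (0.0513) or 3 (0.0569). Without mPTCL 1, 2 or 3 the change was -0.99, also under 2-fold.

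The second Cdkn1b probe set gave the same order of groups. Its intensity was 386 at the lowest, 579 at the median and 1019 at the highest in lymphomas, against 1625, 2036 and 1858 in activated and 1021, 1050 and 1222 in resting T cells, with no overlap of lymphomas with either, a separation found for 11.0% of all genes in lymphomas below resting cells. When every probe set was fitted separately, lymphomas were lower on it by -1.66 ± 0.29 log2 units against activated cells (limma adjusted p = 0.00223) and by -0.92 ± 0.30 against resting cells (limma adjusted p = 0.0457, under 2-fold). In that fit activated cells exceeded resting cells by 0.74 ± 0.12 on it (limma adjusted p = 0.00656, under 2-fold) and by 0.39 ± 0.15 on the main probe set (limma adjusted p = 0.0998). In the fit with 1 probe set per gene the adjusted p of the latter was 0.0912 by limma. More than 1 log2 unit below every normal array lay 4 lymphomas on the second probe set, mPTCL 1, 7, 8 and 9, at 2.09- to 2.65-fold below the lowest normal array, and 0 on the main probe set.

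Cdkn1c, the imprinted p57Kip2 gene, was at or near the floor on most arrays. Its intensity was 180, 15.3, 3.71, 197, 8.28, 11.2, 8.98, 8.80 and 20.4 in mPTCL 1 to 9, against 66.3, 3.50 and 80.8 in activated T cells and 112, 46.4 and 29.1 in resting T cells. mPTCL 1 and 4 were the highest arrays, at 1.61- and 1.76-fold the highest normal array, and the other 7 lymphomas were below 32, as were 1 activated and 1 resting array. The changes were -0.21 ± 0.67 log2 units in lymphomas against resting, -0.23 ± 0.66 in lymphomas against activated and 0.02 ± 0.55 in activated against resting cells, with limma adjusted p from 0.833 to 0.990. The interval of the first comparison ran from -1.67 to 1.24, so a 2-fold change in either direction lay inside it. The sign of each change turned under at least one other floor.

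Counted over lymphomas, 15 of 54 pairs of an inhibitor and a lymphoma were more than 1 log2 unit above every normal array and 1 was below, against 8.09% above and 8.81% below over all pairs of a tested gene and a lymphoma, with 5.58% to 10.0% above and 5.13% to 14.2% below in the single lymphomas. The 15 were 6 for Cdkn2a, 6 for Cdkn2b and 3 for Cdkn2c. mPTCL 9 held 3 of them, mPTCL 1, 2, 6, 7 and 8 held 2 each, mPTCL 3 and 5 held 1 each, and mPTCL 4 held none. Cdkn2a and Cdkn2b had passed the filter on low signal only through lymphomas, which favoured their part of this count. Its distance from 8.09% is therefore not a result about these genes. On the main probe sets no inhibitor was lost in the sense of this margin other than Cdkn2d in mPTCL 6, and on the second probe set of Cdkn1b 4 lymphomas passed it, as given above. For Cdkn2a, Cdkn2b and Cdkn1c a loss could not be seen, because normal arrays already reached the floor.

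No relation between the inhibitors across lymphomas passed after adjustment. Of 15 pairs, 0 had an adjusted p under 0.05 in 2-sided exact permutation tests and 1 had an unadjusted p under 0.05. For Cdkn2a, whose values fall in separate clusters, r was taken within the 6 high lymphomas and no r over all 9 is given. There Cdkn2b followed Cdkn2a with r = 0.746 (exact permutation p = 0.0486, adjusted 0.502) and rho = 0.600 (exact permutation p = 0.242), and Cdkn2d gave r = -0.42 (exact permutation p = 0.443). Of 6 relations with the mean of 17 proliferation genes, 0 passed with or without adjustment, with Cdkn2a again taken within the 6 high lymphomas (r = -0.41, exact permutation p = 0.390). Of the other 5, Cdkn2c came nearest at r = 0.625 over 9 lymphomas (exact permutation p = 0.0705, adjusted 0.271) and rho = 0.633 (exact permutation p = 0.0760), with r = 0.389 after the 2 most distant lymphomas were left out.

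Genes beside the Cdkn2a-Cdkn2b cluster were read from the nearest annotated genes on the array, Ifna4, Ifna1 and Mtap on one side and Dmrta1, Zfp352 and Elavl2 on the other. Mtap, the methionine salvage enzyme next to the cluster, had intensities of 5010, 6371, 2172, 1226, 715, 10139, 3663, 5510 and 3103 in mPTCL 1 to 9, against 1215, 1101 and 1087 in activated and 2698, 2818 and 2899 in resting T cells. The 6 lymphomas high in Cdkn2a all lay above every normal array for Mtap, and the 3 near the floor for Cdkn2a all lay below every resting array. mPTCL 5 was below every activated array as well. Those 3 lymphomas were also the lowest in Cd3e and in the T cell marker mean, and the part of T cell content in the Mtap values was not tested. Mtap did not pass as a group, at 0.21 ± 0.64 log2 units against resting cells (limma adjusted p = 0.854) and 1.51 ± 0.64 against activated cells (0.110), and it fell by 1.31 ± 0.08 in activated against resting cells (limma adjusted p = 0.000253). In activated against resting cells Cdkn2a and Cdkn2b did not pass, with the values above. Both were at or near the floor in resting cells already, so a fall like that of Mtap could not have been seen. Of the other 5 neighbours, Zfp352 in mPTCL 8 was the one value outside the 2-fold margin, below all normal arrays. Beside Cdkn1c, Kcnq1 (244) and Slc22a18 (148) had their highest intensity in mPTCL 4, where Cdkn1c was also highest. mPTCL 4 was the highest lymphoma for macrophage markers (mean 10.21), above the highest resting (7.71) and activated (5.49) arrays. It was also the highest lymphoma for endothelial and stromal markers (7.76), about level with activated T cells (7.33 to 7.74). The part of these cell types in the values was not tested.

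**Figure D4:**
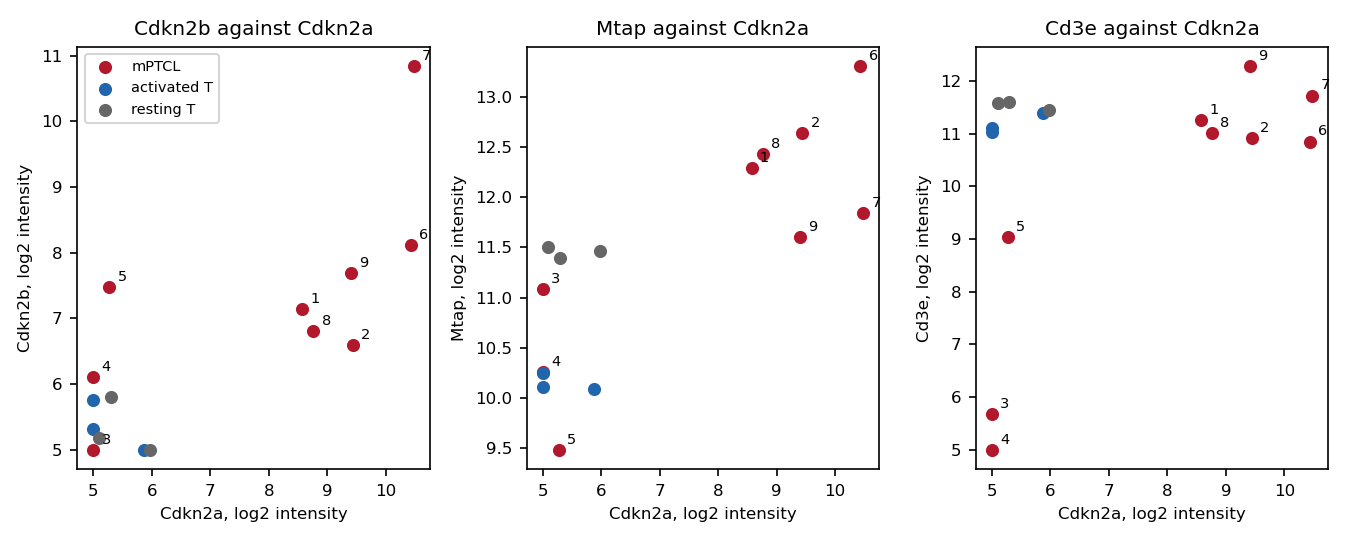
Log2 intensity of Cdkn2b, Mtap and Cd3e (vertical axes) against log2 intensity of Cdkn2a (horizontal axes), 1 point per array, with lymphomas numbered. The 6 lymphomas high in Cdkn2a are above every normal array for Mtap and lie at 10.8 or more for Cd3e, and mPTCL 3, 4 and 5 are the lowest lymphomas for Cdkn2a, Mtap and Cd3e.

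The targets and partners of the inhibitors were taken as lists, and genes named here beyond a fixed set were named after their values were seen. Over all tested genes, 13.9% were called in lymphomas against resting, 15.3% in lymphomas against activated and 12.7% in activated against resting cells. Counts in the short lists are to be read beside these shares. Of 9 cyclins and CDKs of G1 and S phase, 3 rose in lymphomas against resting cells (Ccna2, Ccne1 and Ccne2), the same 3 rose in activated against resting cells, and 0 passed in lymphomas against activated cells. Cyclin E2 (Ccne2), which activates CDK2, rose by 3.55 ± 0.51 log2 units in lymphomas against resting cells (limma adjusted p = 0.000624). The INK4 targets did not pass as a group. Cdk4 was 0.57 ± 0.31 higher in lymphomas than in resting cells (limma adjusted p = 0.223) and Cdk6 was 2.10 ± 1.06 higher (0.185), with 8 of 9 lymphomas above every normal array for Cdk6 and mPTCL 2 below them all. Ccnd2, a D-type cyclin, was lower by -1.56 ± 0.53 (adjusted p = 0.0574) and Ccnd3 by -0.50 ± 0.33 (0.312). Rb1, the substrate of CDK4 and CDK6, rose by 1.05 ± 0.28 in lymphomas (adjusted p = 0.0206) and by 1.14 ± 0.11 in activated cells (0.000886), both against resting cells, and was the one of 3 Rb family genes called in each. Rbl2 (p130) fell in lymphomas against activated cells by 1.64 ± 0.41 (adjusted p = 0.0145).

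Cdkn1a (p21Cip1), the Cip relative of the Kip genes and a p53 target, was measured at 139 to 617 (median 367) in lymphomas, against 166, 319 and 251 in activated and 92.3, 74.7 and 102 in resting T cells. The T cells lacked p53, but host cells in the lymphoma samples need not, and their part in this signal was not tested. All lymphomas lay above all resting arrays, as for 8.36% of all genes, and so did all activated arrays, as for 23.3%. Cdkn1a rose by 1.93 ± 0.47 log2 units in lymphomas against resting cells (limma adjusted p = 0.0143) and by 1.41 ± 0.30 in activated against resting cells (0.0141), and lymphomas did not pass against activated cells (0.51 ± 0.48, adjusted p = 0.460). Its second probe set was at the floor in all normal arrays and in 5 of 9 lymphomas.

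Of 5 measured genes of p27Kip1 turnover, 2 rose in lymphomas against resting cells. Skp2, the ubiquitin ligase subunit that recognises p27Kip1, rose by 1.46 ± 0.28 log2 units (limma adjusted p = 0.00363), and its cofactor Cks1b by 3.93 ± 0.35 (3.35e-05). Against activated cells Cks1b rose by 1.30 ± 0.35 (adjusted p = 0.0205), Rnf123, a ligase subunit for p27Kip1 in G1, fell by 2.07 ± 0.51 (0.0129), and Skp2 was 0.84 ± 0.26 higher (0.0359) but under 2-fold. In activated against resting cells 1 of the 5, Cks1b, rose by 2.63 ± 0.15. Of 5 genes that govern Cdkn1b or Cdkn1c transcription, Foxo1 fell in lymphomas against resting cells by 1.53 ± 0.44 (adjusted p = 0.0298) and, with Men1, against activated cells (by 1.41 ± 0.44 and 1.20 ± 0.32), and 0 passed in activated against resting cells.

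Of 12 tested repressors of the Ink4a-Arf locus, most of them Polycomb proteins, 2 fell in lymphomas against resting cells and 10 did not pass. That is near the 13.9% called over all tested genes. The 2 were Cbx7 and Cbx8, both Polycomb chromodomain proteins, with Cbx7 lower by -1.72 ± 0.47 log2 units (limma adjusted p = 0.0241). Cbx7 intensities were 1349, 413, 235, 356, 691, 506, 800, 429 and 215 in mPTCL 1 to 9, against 1821, 1485 and 1337 in activated and 1533, 1759 and 1418 in resting T cells, so that mPTCL 1 overlapped the activated arrays. It did not separate the lymphomas high in Cdkn2a from mPTCL 3, 4 and 5. Against activated cells 1 rose (Bmi1, by 1.09 ± 0.21) and 1 fell (Cbx7), and in activated against resting cells 2 rose (Ezh2, by 1.73 ± 0.18, and Phf19). Of 10 genes listed as activators of the locus, E2f1 and E2f2 rose and Bach2 and Ets1 fell in lymphomas against resting cells. Bach2, a lymphoid transcription factor, fell by 2.74 ± 0.61 (limma adjusted p = 0.00881) and fell by 3.63 ± 0.60 against activated cells (0.00194). Every lymphoma lay below every normal array for Bach2. Lymphomas lay wholly below resting arrays for 11.0% and wholly below activated arrays for 12.4% of all genes. Among 4 Arf partners Mdm4 fell in both lymphoma comparisons, and Mdm2, the p19Arf target, was at -0.62 ± 0.35 against resting cells (adjusted p = 0.239) and -0.88 ± 0.35 against activated cells (0.0917).

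The proliferation list gave the setting in which the inhibitors were measured. Of its 17 tested genes, 16 rose in lymphomas and 14 in activated cells against resting cells, and 0 passed in lymphomas against activated cells. The median change over the list was 3.38, 3.13 and 0.35 log2 units in these comparisons, against -0.02, 0.02 and -0.08 over all tested genes. Mki67, a marker of cycling cells, rose by 3.54 ± 0.40 in lymphomas (limma adjusted p = 0.000188). Cdkn2c thus moved in the direction of this list in both comparisons with resting cells, while Cdkn1b and Cdkn2d had negative changes in lymphomas against either normal group and positive changes in activated against resting cells, where median centring put Cdkn2d at -0.02. Of these changes, that of Cdkn1b in lymphomas against activated cells was called.

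The genes whose level followed each inhibitor most closely over the 15 arrays were named by Pearson's r, as a description in which the points share their groups. For Cdkn2c these were Wdhd1 (r = 0.959), a replication factor, Atpif1 (0.955), an inhibitor of the mitochondrial ATP synthase, and Stmn1 (0.943), a microtubule regulator. For Cdkn2a they were Drg2 (0.950), Emc2 (0.944) and Rasd2 (0.936), and for Cdkn2b Pfdn5 (0.879), Vti1b (0.871) and Ppp1cc (0.861). For Cdkn2d they were Cabin1 (0.949), Elf4 (0.942) and Baz2a (0.933), for Cdkn1b Otud5 (0.918), Cytip (0.913) and Gatad2b (0.910), and for Cdkn1c F11r (0.899), Cxcl9 (0.840) and 1600010M07Rik (0.815). Cdkn1c was at the floor in 7 lymphomas, 1 activated and 1 resting array and highest in mPTCL 1 and 4, so its r values lean on few arrays. Cdkn2a was high in 6 lymphomas and at or near the floor on all other arrays, so its r values largely set these 6 against the rest.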

How the data were processed

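The deposited values were intensities on a linear scale, 1 column per array, which the authors computed by MAS5 within Affymetrix Expression Console, named as version 1.1 for the lymphomas and with no version for the normal samples, per the submitters' processing notes. No detection calls were used. Of 45101 probe sets, 34958 had 1 gene symbol, 932 several and 9211 none. Values under 32 were set to 32, log2 was taken, each gene was read from its highest-mean probe set, and 11902 genes that reached 100 on 3 or more arrays were tested. Group tests used limma 3.58.1 in R 4.3.3 (lmFit, eBayes with a trend) on the arrays of the 2 groups compared, with Benjamini-Hochberg adjustment over all tested genes, and were tested on simulated data. A gene was called at an adjusted p under 0.05 and 2-fold. A single lymphoma was outside the normal range when more than 1 log2 unit beyond all 6 normal arrays. Correlations used 2-sided exact permutation tests. Genes named by rule were the 6 inhibitors, 3 most correlated genes each, and 3 neighbours on each side of Cdkn2a-Cdkn2b and Cdkn1c. From the pathway lists a fixed set was set by rule. The other genes of these lists were named after their values were seen, and not by a rule. The genes, lists and tests were chosen with earlier results of these data known. The number of arrays limits the precision. The p53 gene is not analysed here.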

Additional observations from a re-analysis of the deposited data

How the results depend on the processing

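Cdkn2c was called in lymphomas against resting cells and in activated against resting cells under every alternative run. Array weights raised the inhibitors called in lymphomas against resting cells, 1 as reported, to 3, and so did leaving out the 3 lymphomas low in Cd3e, an alternative chosen after seeing the data. In both cases Cdkn2a and Cdkn2b were added. Against activated cells, where 1 was called, the count was 2 with quantile normalisation, 3 with array weights, 2 by adjusted p alone, 3 without the lymphomas high in B cell markers and 5 without those low in Cd3e. Leaving out each array in turn gave 0 to 3, with 0 without mPTCL 1, mPTCL 2, activated replicate 1 or activated replicate 3, 2 without mPTCL 7 and 3 without mPTCL 4 or mPTCL 5. The cause was not tested. Leaving out the 3 lymphomas low in Cd3e also removes the 3 lowest Cdkn2a and the 3 highest Cdkn2d values. Further calls of these genes in lymphomas were therefore partly built in. Calls over all genes also rose with array weights and without these 3 lymphomas, as given below. Shares of all genes called are not given for the alternatives, so their counts of inhibitors called are not a result about the inhibitors. In single lymphomas, 8 in place of 15 inhibitor values lay above the normal arrays by a margin of 2 log2 units. Those below, 1 as reported, numbered 4 with median centring, 2 with the mean of probe sets and 0 by the wider margin. The shares of all genes under these settings are not given here, and Cdkn2a and Cdkn2b had passed the filter only through lymphomas. These counts are therefore not a result about the inhibitors.

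The changes that turned sign were all uncalled, and those of Cdkn1c, Cdkn2a and Cdkn2b rest on arrays at or near the floor. In lymphomas Cdkn1c became 0.0778 against resting and 0.22 against activated cells with a floor of 64, and ranged from -0.60 to 0.30 and from -0.63 to 0.0424 over arrays left out. In activated against resting cells it became -0.27 and -0.14 with floors of 16 and 64, -0.40 as log2 of the value plus 16, -0.20 with quantile normalisation and -0.31 with median centring, and ranged from -0.37 to 0.53 over arrays left out. Cdkn2b there became -0.13 and -0.29 with these last scalings and ranged from -0.18 to 0.26, Cdkn2a ranged from -0.46 to 0.0927, and Cdkn2d became -0.0182 with median centring, which put the median of all genes at -0.30, against 0.02 as reported.

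Counts over all genes moved by more than 1.5 times as follows. In lymphomas against resting cells 1651 became 2715 with array weights, 2594 without the lymphomas low in Cd3e, and 778 to 827 when a resting array was left out. Against activated cells 1824 became 2946, 2956 and, without an activated array, 916 to 928. In activated against resting cells 1510 became 397 with all 15 arrays in 1 fit and 3678 by adjusted p alone. Replicate numbers did not pair activated with resting arrays, since same-numbered deviations correlated at -0.01, 0.05 and -0.01, and with a replicate block 1431 genes and 1 inhibitor, Cdkn2c (adjusted p = 0.00510 by limma), were called.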
